A study of Mus musculus with 20 samples.

Results

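Alveolar type I genes are those by which the thin, flat cells of the gas exchange surface are recognised in lung tissue. The 8 examined were Ager, Hopx, Rtkn2, Aqp5, Clic5, Pdpn, Igfbp2 and Emp2, taken by symbol from 24062 genes listed per library, and all 8 were among the 15766 genes that passed the filter on low counts. Whole lungs came from 4 groups of adult mice, 8 to 10 weeks old, of a mixed C57/129 background. They were Arg2-/- mice kept for 28 days in hypoxia (10% oxygen), Arg2-/- mice kept for 28 days in room air (21% oxygen), Arg2+/+ mice kept for 28 days in hypoxia and Arg2+/+ mice kept for 28 days in room air, with 4 samples in each group. Arg2 encodes arginase 2, an enzyme of mitochondria that turns arginine into ornithine and urea. The Arg2-/- mice are called the knockout and the Arg2+/+ mice wild type. The labels do not say in which cells Arg2 was lost, where its deletion lies or whether a sample is 1 animal, so the p-values rest on the spread between samples, which may be partly technical. They name both sexes, without the sex of each sample.

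Type I cells cover most of the alveolar surface, where gas crosses between air and capillary blood, and they lie on a basement membrane shared with the capillary endothelium. They can arise from alveolar type II cells, which make surfactant, and the regulators YAP and TAZ with their TEAD partners take part in that change. Ager encodes the receptor for advanced glycation end products, which sits on the basolateral membrane and binds S100 proteins and HMGB1. Hopx encodes a small homeodomain protein that does not bind DNA itself. Igfbp2 encodes a secreted protein that binds insulin-like growth factors and marks mature type I cells. Pdpn encodes podoplanin, a membrane glycoprotein that is also made by lymphatic endothelium, and Aqp5 the apical water channel, which is also made in airway glands. Clic5 encodes a chloride intracellular channel protein linked to the cytoskeleton, and Emp2 a tetraspan membrane protein.

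Between 9531270 and 63331530 reads were counted in genes per sample. Wild type room air 3 stood apart as the shallowest sample, with 25.4% of its reads inside or outside genes assigned to a gene. In wild type hypoxia 4, the ribosomal RNA gene Rn45s took 19.9% of gene counts, against at most 1.33% in the other samples. Over 7 pancreas and thymus markers, the summed level ranged from 3.52 to 708 CPM in knockout hypoxia, 1.59 to 60.7 in knockout room air, 1.3 to 1.99 in wild type hypoxia and 2.21 to 3.12 in wild type room air, where CPM is edgeR's depth-scaled count on TMM-scaled library sizes. Knockout hypoxia 1 and 2 and knockout room air 3 and 4, known from earlier results to carry RNA of other organs, were therefore also left out together. With fewer knockout samples, the genes that passed the test for hypoxia in the knockout fell from 2685 to 1092 (edgeR). Whether calls lost in that setting reflect the smaller groups or the RNA of other organs was not tested. Arg2 itself averaged 4.28 ± 0.91 CPM in knockout hypoxia and 9.3 ± 2.25 CPM in wild type hypoxia (SD, n = 4 each) and 5.62 ± 1.47 CPM in knockout room air and 9.19 ± 1.92 CPM in wild type room air. It passed the test between genotypes in hypoxia (edgeR, adjusted p = 0.0019) but not in room air (adjusted p = 0.0842), where knockout room air 4 had 7.78 CPM and overlapped wild type.

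Of the 8 genes, Igfbp2 changed with hypoxia in both genotypes, and its promoter is shown beside that of Ager, which is the most abundant per length and did not pass the test in any comparison. Both stretches are the 250 bases before the start in RefSeq on GRCm38.p6, plus strand, at chr1:72824230-72824479 for Igfbp2 and chr17:34597600-34597849 for Ager. Capitals mark the core of the hypoxia response element, searched as ACGTG and as GCGTG on both strands.
Igfbp2: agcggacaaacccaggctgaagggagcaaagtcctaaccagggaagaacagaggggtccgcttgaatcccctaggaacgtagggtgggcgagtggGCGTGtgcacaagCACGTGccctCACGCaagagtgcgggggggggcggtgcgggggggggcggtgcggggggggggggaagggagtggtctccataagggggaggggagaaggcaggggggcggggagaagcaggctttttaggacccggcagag
Ager: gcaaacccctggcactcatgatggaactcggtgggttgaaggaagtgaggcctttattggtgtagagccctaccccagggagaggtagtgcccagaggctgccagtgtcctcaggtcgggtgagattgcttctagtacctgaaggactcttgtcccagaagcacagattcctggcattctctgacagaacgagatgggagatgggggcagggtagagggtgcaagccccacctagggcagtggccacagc

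In promoters of 250 bases before to 50 bases after the start, this Igfbp2 start held 2 matches to ACGTG, which share the palindrome CACGTG, and 2 to GCGTG. The other Igfbp2 start in RefSeq held 0 matches to ACGTG and 1 to GCGTG, while Ager, Clic5 and Emp2 held 0 of either. Aqp5 held 3 and 2, Pdpn held 2 and 0, and the starts of Hopx held 3 and 1, and 1 and 0, where neighbouring matches again share a palindrome in Aqp5, Pdpn and the first Hopx start. Promoters were found for 7 of the 8 genes, Rtkn2 being the exception. Over all 32851 promoters of this length, 43.8% held either motif, so a match is common and is given as a description of these letters alone.

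All 8 genes were read deeply, with at least 1540 counts in every sample. Per kilobase of exon, Ager averaged 939 CPM over the 16 samples and Hopx 433 CPM. Clic5 followed with 214 CPM per kilobase, Igfbp2 with 152, Emp2 with 150, Aqp5 with 97.9, Pdpn with 86.4 and Rtkn2 with 58.5. Sample ranges per kilobase did not overlap between Ager (865 to 1100), Hopx (355 to 499) and the rest (45 to 254). Among the rest, the ranges of Clic5 (180 to 251), Igfbp2 (96.1 to 254) and Emp2 (126 to 175) overlapped from neighbour to neighbour, as did those of Aqp5 (81.5 to 111) and Pdpn (73.2 to 102), and Rtkn2 lay lowest (45 to 70). The wide Igfbp2 range also overlapped those of Aqp5 and Pdpn.

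Summed over the 8 genes, the level was 6687 to 7607 CPM in knockout hypoxia, 6619 to 6974 in knockout room air, 6275 to 7012 in wild type hypoxia and 6300 to 7363 in wild type room air. The 4 ranges overlapped. The genes took 0.54% of the gene counts of wild type hypoxia 4, the sample rich in Rn45s, and 0.644% to 0.741% of those of the other samples. In whole lung, fewer cells of a type and less RNA per cell cannot be told apart.

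Some markers of other cells moved in the same hypoxia comparisons, where 17% of all genes were called in the knockout and 4.98% in wild type. All 9 T and natural killer cell markers fell in the knockout and 3 of them in wild type. Their sum was 27.6 to 54.4 CPM in knockout hypoxia and 88.4 to 132 CPM in knockout room air. In wild type the sum was 56.1 to 64.8 CPM in hypoxia and 84.3 to 123 CPM in room air. The knockout call of Cd3d was lost with the 4 samples that carry other organs' RNA left out (edgeR, adjusted p = 0.0918). The thymus markers Rag1 and Dntt reached 46.2 and 12.7 CPM in knockout room air, against 2.99 and 0.461 CPM in knockout hypoxia. The part of thymus RNA in the T cell markers was not tested. In wild type, Klrd1 lost its call in 18 of 28 alternative fits, Nkg7 in 6 and Gzma in 0. Of 8 heart muscle markers, 5 fell in the knockout and 0 in wild type, where 7 log2 differences were negative too. Sums were 175 to 385 CPM in knockout hypoxia and 429 to 1020 CPM in knockout room air. In wild type they were 245 to 393 CPM in hypoxia and 334 to 597 CPM in room air. Nppa lost its knockout call in 9 of 28 alternative fits, Tnni3 in 5, Myl4 in 4, and Myl7 and Actc1 in 0. For the difference between the hypoxia effects, 0 of the T and natural killer cell markers and 0 of the heart muscle markers passed. Over all genes, 0.501% did. Of 10 endothelial markers, 3 rose and 4 fell in the knockout and 1 rose and 4 fell in wild type. The endothelial sum was 4210 to 4600 CPM in knockout hypoxia and 4210 to 4730 CPM in knockout room air. In wild type it was lower in hypoxia, at 3900 to 4340 CPM, than in room air, at 4490 to 4650 CPM, without overlap. Of 7 mesothelial markers, 1 rose in each genotype, a count near the background in the knockout. The part of these cells in the levels of the 8 genes was not tested.

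**Figure D1:**
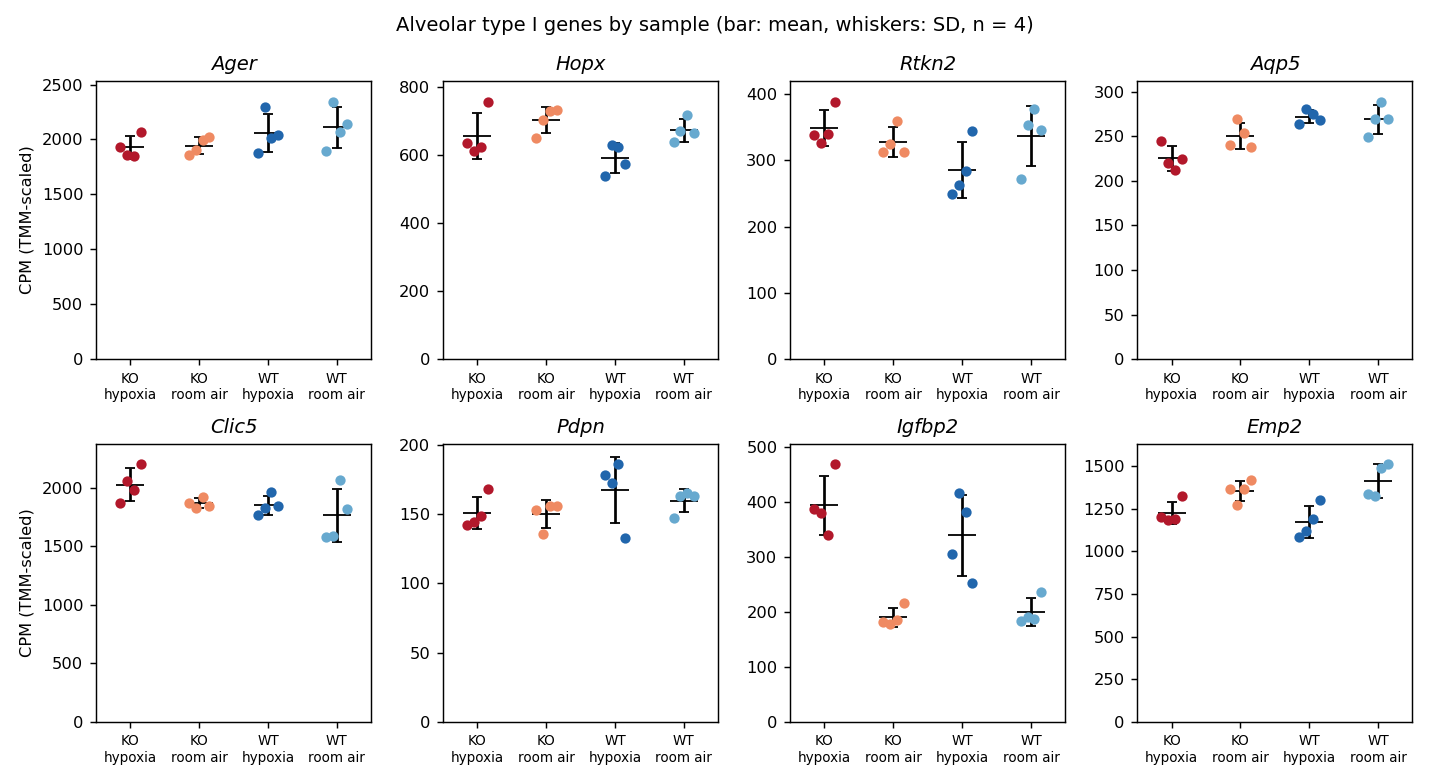
CPM of each alveolar type I gene in every sample, by group (KO: Arg2 knockout, WT: wild type; points: samples; bar and whiskers: mean and SD, n = 4; axes start at 0). Igfbp2 in hypoxia lies at 339 to 468 CPM in the knockout and 253 to 417 CPM in wild type, above all room air samples of 177 to 237 CPM, while the groups of the other genes lie close together.

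Igfbp2 was the 1 gene of the 8 that rose in hypoxia in both genotypes. It lies on chromosome 1 at 72824503 to 72852474 of GRCm38, plus strand. In the knockout it stood at 387, 381, 339 and 468 CPM in hypoxia, against 181, 177, 185 and 216 CPM in room air. In wild type it stood at 306, 417, 382 and 253 CPM in hypoxia, against 184, 191, 186 and 237 CPM in room air. The groups did not overlap in either genotype, and the lowest hypoxia sample was wild type hypoxia 4.

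The log2 fold change of Igfbp2 was 1.05 ± 0.14 (SE) in the knockout, a 2.08-fold rise with a 95% interval of 1.7 to 2.53 (edgeR, adjusted p = 3.72e-05). It was 0.77 ± 0.14 in wild type, a 1.7-fold rise with an interval of 1.4 to 2.08 (edgeR, adjusted p = 0.0018). Igfbp2 was thus 1 of 8 genes called in each comparison, where 17% of all genes tested were called for hypoxia in the knockout (7.93% higher, 9.1% lower) and 4.98% for hypoxia in wild type (2.67% higher, 2.31% lower). The count of 1 of 8 is near the background in the knockout. Without wild type hypoxia 4 and wild type room air 3, its wild type log2 fold change was 0.87 (adjusted p = 0.000466). The rise did not differ detectably between genotypes, at 0.29 ± 0.19 on the log2 scale with a 95% interval of -0.12 to 0.69 (edgeR, adjusted p = 0.544). Between genotypes within hypoxia, Igfbp2 differed by 0.22 ± 0.14 (adjusted p = 0.264).

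Set against the geometric mean of the other 7 genes in the same sample, Igfbp2 stood at 0.629 ± 0.0516 in knockout hypoxia and 0.298 ± 0.0264 in knockout room air (SD, n = 4 each). The ratio was 0.55 ± 0.11 in wild type hypoxia and 0.305 ± 0.0373 in wild type room air. Its lowest value in hypoxia was 0.409, in wild type hypoxia 4, and its highest in room air was 0.354, in wild type room air 4. The geometric mean of the other 7 genes was 625 ± 37.1 CPM in knockout hypoxia and 637 ± 18 CPM in knockout room air, and 616 ± 23.5 CPM in wild type hypoxia and 654 ± 45.6 CPM in wild type room air.

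**Figure D2:**
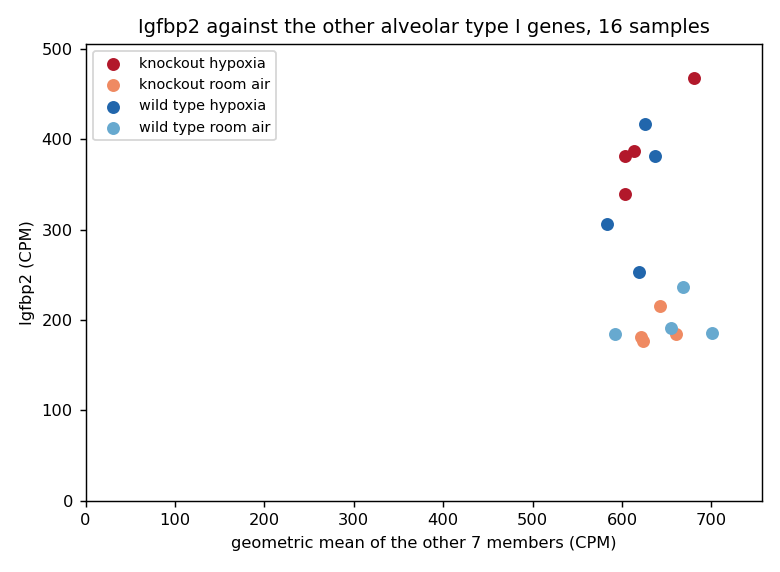
Igfbp2 in CPM (vertical) against the geometric mean of the other 7 alveolar type I genes in CPM (horizontal), 1 point for each of 16 samples, coloured by group, both axes from 0. The horizontal range is 583 to 701 CPM over all samples, while the 8 hypoxia samples lie at 253 CPM or more of Igfbp2 and the 8 room air samples at 237 CPM or less.

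Of 5 other binding protein genes, Igfbp3, Igfbp4 and Igfbp6 fell in hypoxia in both genotypes, and Igfbp5 and Igfbp7 did not pass the test. Igfbp3, the main carrier of insulin-like growth factors in blood, stood at 47.6, 28.3, 39.2 and 36.2 CPM in knockout hypoxia, against 80.1, 76.5, 71.3 and 77 CPM in knockout room air. It stood at 27.1, 36.4, 33.2 and 14.2 CPM in wild type hypoxia, against 60, 55.8, 65.3 and 59.1 CPM in wild type room air, with no overlap in either genotype. Igfbp3 fell by 1.01 ± 0.21 on the log2 scale in the knockout (edgeR, adjusted p = 0.0029) and by 1.11 ± 0.21 in wild type (adjusted p = 0.0041).

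Igfbp4 fell by 0.49 ± 0.08 on the log2 scale in knockout hypoxia (edgeR, adjusted p = 0.000367) and by 0.32 ± 0.08 in wild type hypoxia (adjusted p = 0.0245), and the wild type call of Igfbp4 was lost without wild type hypoxia 3, wild type hypoxia 4 or wild type room air 3 (adjusted p up to 0.125 over all alternatives). Igfbp6, which prefers insulin-like growth factor 2, fell by 0.42 ± 0.1 in the knockout (adjusted p = 0.008) and by 0.37 ± 0.1 in wild type (adjusted p = 0.0401), where Igfbp6 lost its call in 13 of 28 alternatives. With the 4 samples that carry other organs' markers left out, the knockout calls of Igfbp3 (adjusted p = 0.0544) and Igfbp6 (adjusted p = 0.415) were lost too. Over all 28 alternatives, the knockout log2 change ran from -1.14 to -0.89 for Igfbp3 and from -0.48 to -0.23 for Igfbp6. Igfbp5 differed by -0.01 ± 0.18 and 0.22 ± 0.18 with hypoxia in the knockout and in wild type, and Igfbp7 by 0.21 ± 0.1 and 0.07 ± 0.1, none past the test. The Igfbp genes were chosen with earlier results of these data known, so these counts are a description.

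**Figure D3:**
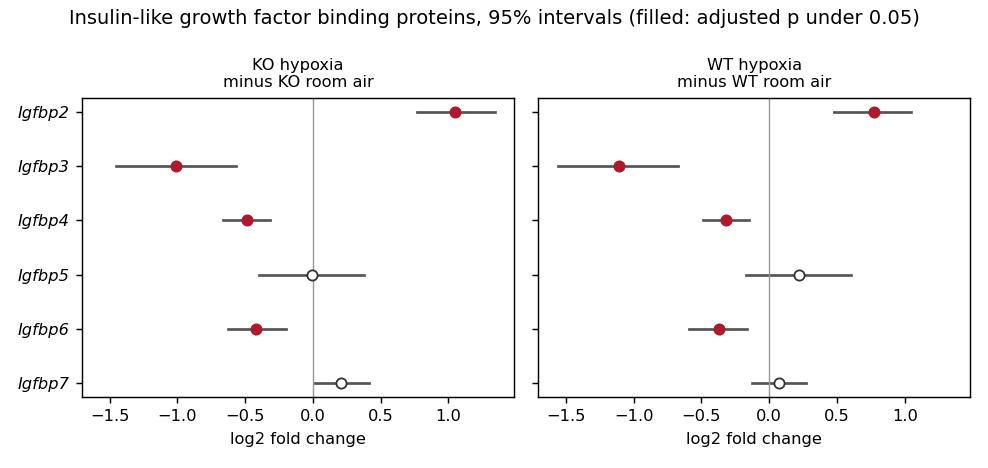
edgeR log2 fold changes of 6 insulin-like growth factor binding protein genes with 95% intervals, for hypoxia minus room air in the knockout (left) and in wild type (right); filled points passed the test. Igfbp2 lies at 1.05 and 0.77, and Igfbp3, Igfbp4 and Igfbp6 lie between -1.11 and -0.32.

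Aqp5 was the 1 gene of the 8 that differed between genotypes in hypoxia, at a lower level in the knockout. It lies on chromosome 15 at 99590782 to 99594829, plus strand. Knockout hypoxia samples stood at 244, 220, 212 and 225 CPM of Aqp5, against 264, 281, 276 and 269 CPM in wild type hypoxia. The groups did not overlap. The log2 difference was -0.27 ± 0.07 (edgeR, adjusted p = 0.0113), or 0.828 of the wild type level with a 95% interval of 0.747 to 0.918. In this comparison 23% of all genes tested were called, 11% higher and 12.1% lower, so a count of 1 of 8 is no more than the background.

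The Aqp5 call was lost with library totals in place of TMM scaling (-0.24, adjusted p = 0.0809) and with a trend in GC content removed from each sample (-0.21, adjusted p = 0.0584). In room air Aqp5 stood at 241, 269, 254 and 238 CPM in the knockout, against 249, 269, 289 and 269 CPM in wild type, and these groups overlapped (edgeR log2 difference -0.1 ± 0.07, adjusted p = 0.41). The difference between the hypoxia effects on Aqp5 was -0.17 ± 0.1 (adjusted p = 0.484), so no dependence of the genotype difference on oxygen was shown. Of 10 airway epithelial markers, 5 were lower in knockout than in wild type hypoxia and 0 higher, where 12.1% of all genes were lower. Muc5b, a gel-forming mucin, was at -1.62 ± 0.33 (edgeR, adjusted p = 0.0047) and Dnah9, a dynein of cilia, at -0.67 ± 0.16 (adjusted p = 0.0064). Cyp2f2 lost its call in 14 of 28 alternative fits, Bpifa1 and Dnah5 in 3 each, and Muc5b and Dnah9 in 0. In room air Muc5b averaged 91.2 CPM in the knockout and 161 CPM in wild type, and Dnah9 64.3 and 80.4 CPM. There 0 of the 10 were called, where 0.0761% of all genes were, with 7 log2 differences negative and 3 positive. For the difference between the hypoxia effects, 0 of the 10 airway markers passed, where 0.501% of all genes did. Summed, the airway list ranged from 15100 to 17300 CPM in knockout hypoxia and from 15300 to 22000 CPM in wild type hypoxia, with none of its genes at 0. Its part in the Aqp5 difference was not tested.

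Emp2 and Hopx had lower means in hypoxia than in room air in both genotypes, and neither passed the test. Emp2 stood at 1090, 1120, 1190 and 1300 CPM in wild type hypoxia, against 1340, 1330, 1490 and 1510 CPM in wild type room air. The wild type groups of Emp2 did not overlap, with a log2 difference of -0.27 ± 0.08 (edgeR, adjusted p = 0.0525). Emp2 passed in 7 of 28 alternatives, at adjusted p = 0.0098 with DESeq2 and 0.018 without wild type hypoxia 4. In the knockout, Emp2 stood at 1210, 1190, 1190 and 1320 CPM in hypoxia, against 1370, 1280, 1370 and 1420 CPM in room air, and these groups overlapped (-0.15 ± 0.08, adjusted p = 0.226).

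Hopx stood at 538, 628, 624 and 575 CPM in wild type hypoxia, against 638, 672, 719 and 665 CPM in wild type room air. These groups did not overlap either (edgeR log2 difference -0.19 ± 0.08, adjusted p = 0.253). In the knockout, Hopx stood at 634, 612, 623 and 757 CPM in hypoxia, against 649, 702, 731 and 732 CPM in room air, and the groups overlapped through knockout hypoxia 4 (-0.1 ± 0.08, adjusted p = 0.471). Igfbp2, Emp2 and Hopx were thus the 3 of 8 genes whose wild type groups did not overlap, where 8.23% of all genes tested did not. In the knockout, 1 of the 8, Igfbp2, did not overlap, where 24.4% of all genes did not.

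Rtkn2 stood at 339, 327, 339 and 389 CPM in knockout hypoxia, against 250, 263, 283 and 344 CPM in wild type hypoxia. The groups overlapped through wild type hypoxia 4, at 344 CPM. The log2 difference in Rtkn2 was 0.29 ± 0.11 (edgeR, adjusted p = 0.0588), and without wild type hypoxia 4 it was 0.4 and passed (adjusted p = 0.0166). Hypoxia minus room air was 0.09 ± 0.11 in the knockout (adjusted p = 0.638) and -0.24 ± 0.11 in wild type (adjusted p = 0.266) for Rtkn2, and the difference between these effects was 0.33 ± 0.15 (adjusted p = 0.339). In room air Rtkn2 stood at 313, 325, 359 and 312 CPM in the knockout and 272, 353, 377 and 345 CPM in wild type.

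Pdpn stood at 142, 144, 149 and 168 CPM in knockout hypoxia, against 178, 173, 186 and 133 CPM in wild type hypoxia. Wild type hypoxia 4 was again the sample that made the groups overlap (edgeR log2 difference -0.15 ± 0.09, adjusted p = 0.264), and without it Pdpn was lower in the knockout by a called margin (-0.24, adjusted p = 0.0443). Hypoxia minus room air was 0.01 ± 0.09 in the knockout and 0.07 ± 0.09 in wild type for Pdpn.

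Pdpn is shared with lymphatic endothelium, whose markers moved strongly. Of 6 lymphatic genes tested, 4 rose and 1 fell in hypoxia in each genotype, where 17% of all genes were called in the knockout and 4.98% in wild type. In wild type, Sema3d lost its call in 6 of 28 alternatives, and Prox1, Mmrn1, Reln and Lyve1 in 0. Reln, which encodes the secreted protein reelin, averaged 76.9 ± 11.7 CPM in knockout hypoxia and 24.6 ± 1.69 CPM in knockout room air, and 68.6 ± 18.9 CPM in wild type hypoxia and 25.9 ± 3.02 CPM in wild type room air. Prox1, the transcription factor of lymphatic identity, rose by 1.22 ± 0.2 on the log2 scale in the knockout and by 1.5 ± 0.2 in wild type (edgeR, adjusted p = 0.000242 and 0.000104). Lyve1, a hyaluronan receptor also found on some macrophages, fell by 0.84 ± 0.16 in the knockout and by 1.59 ± 0.16 in wild type (adjusted p = 0.0012 and 8.11e-06), and its knockout call was lost with the 4 samples rich in other organs' markers left out (adjusted p = 0.081). The lymphatic list summed to 488 to 667 CPM in knockout hypoxia and 526 to 759 CPM in knockout room air, and to 323 to 446 CPM in wild type hypoxia and 491 to 590 CPM in wild type room air, with 1 of its 7 genes at 0 throughout. The part of lymphatic cells in the Pdpn level was not tested.

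Ager and Clic5, the most counted of the 8 genes, did not pass any test and have narrow intervals. Ager stood at 1930, 1860, 1850 and 2070 CPM in knockout hypoxia and at 1860, 1900, 2000 and 2020 CPM in knockout room air. It stood at 1880, 2300, 2020 and 2040 CPM in wild type hypoxia and at 1890, 2350, 2060 and 2140 CPM in wild type room air, so all 4 groups overlapped. The 95% interval of the hypoxia effect on Ager was 0.88-fold to 1.12-fold in the knockout and 0.866-fold to 1.1-fold in wild type.

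Clic5 stood at 1870, 2060, 1980 and 2200 CPM in knockout hypoxia and at 1870, 1830, 1930 and 1850 CPM in knockout room air. It stood at 1770, 1830, 1960 and 1840 CPM in wild type hypoxia and at 1580, 1590, 2070 and 1820 CPM in wild type room air. The groups overlapped in every comparison of Clic5. Its 95% interval for hypoxia was 0.958-fold to 1.23-fold in the knockout and 0.926-fold to 1.19-fold in wild type.

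In room air, 0 of the 8 genes passed the test between genotypes with edgeR, where 0.0761% of all genes did. None of the 8 had an unadjusted p under 0.05 there, none passed with DESeq2 or limma voom, and their groups overlapped for all 8, where 10.4% of all genes did not overlap. The room air log2 differences between knockout and wild type ran from -0.12 (Ager) to 0.08 (Clic5). That background depends on wild type room air 3 and on the tool: without that sample 2198 of 15915 genes were called between genotypes in room air, and with all samples 1003 were by DESeq2 and 974 by limma voom. The 8 genes still gave 0 calls without it, with log2 differences from -0.13 (Ager) to 0.17 (Clic5) and the smallest adjusted p at 0.162 (Clic5). For the difference between the hypoxia effects, 0 of the 8 passed with edgeR, DESeq2 or limma voom, where 0.501% of all genes passed, and Rtkn2 was the 1 gene with an unadjusted p under 0.05 (0.0433). In hypoxia, Aqp5 was the 1 of 8 genes whose genotypes did not overlap, where 25.4% of all genes did not.

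**Figure D4:**
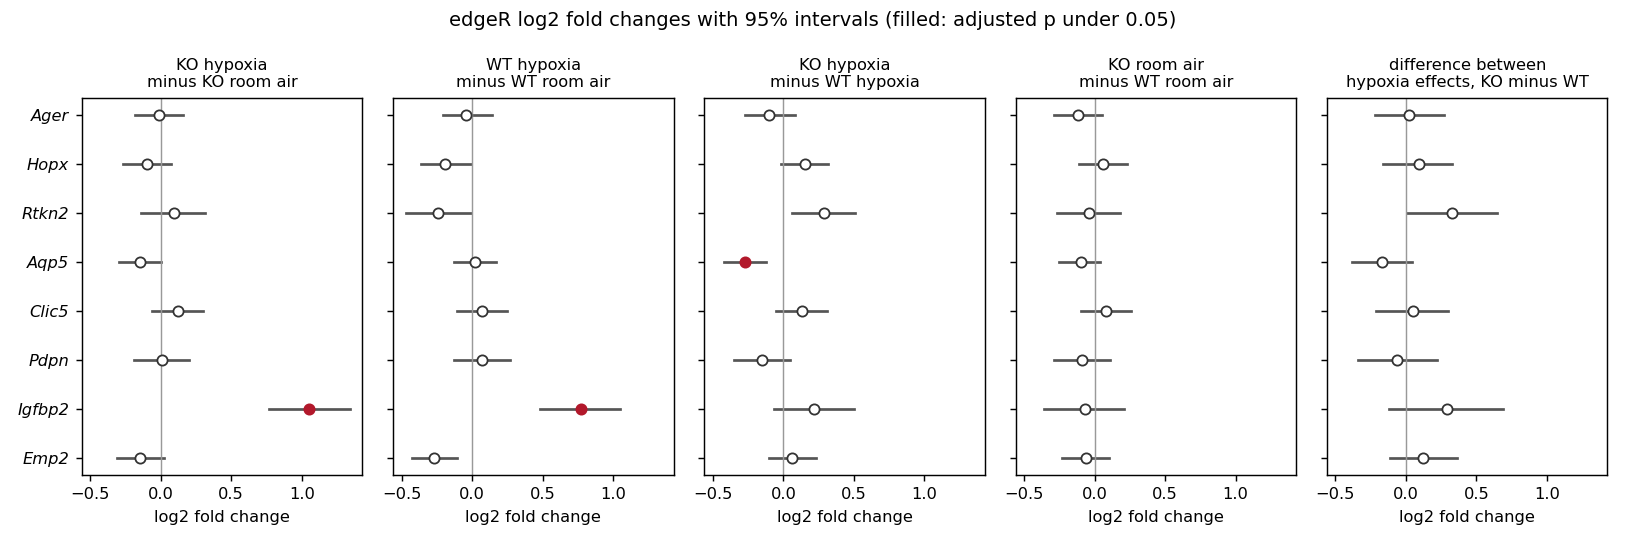
edgeR log2 fold changes of the 8 alveolar type I genes with 95% intervals in 5 comparisons; filled points have an adjusted p under 0.05. Igfbp2 lies at 1.05 and 0.77 in the hypoxia comparisons and Aqp5 at -0.27 for knockout minus wild type in hypoxia, and the open points lie between -0.27 and 0.33.

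The 8 genes differed in their spread within groups. The mean coefficient of variation within a group was lowest for Aqp5 (5.16%) and highest for Igfbp2 (14.4%) and Rtkn2 (10.7%), against a median of 8.63% over the 2261 genes of at least 100 CPM. Across the 28 pairs of the 8 genes, deviations from the group means in log2 CPM correlated positively in 24, with a median Pearson r of 0.386 and a range of -0.138 to 0.713 over 16 samples. The highest pair was Rtkn2 with Emp2 and the lowest Rtkn2 with Igfbp2. These values share library and scaling and are a description.

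The genes whose log2 CPM over the 16 samples was most like the mean of the 8 were Tes (Pearson r = 0.844, Spearman correlation 0.8), a LIM domain protein of focal adhesions, and Fdx1 (r = 0.779, Spearman correlation 0.741), a mitochondrial ferredoxin. Zbed4, Dtx2, Gkap1, Swap70, Zmynd19 and Hsdl1 followed, with r of 0.678 to 0.761. They were picked as the highest of 11941 genes of at least 5 CPM, so the size of r is fixed by that choice. For Ager alone, the 5 most alike were Snord22, Krt8, Krt7, Noc2l and Fgfrl1, with r of 0.806 to 0.834. Krt7 and Krt8 encode keratins of simple epithelium.

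Of 24 further genes of type I cells, 1 rose and 1 fell in the knockout in hypoxia, and 1 rose and 1 fell in wild type in hypoxia. Over all genes tested 17% were called in the knockout and 4.98% in wild type, so the list's counts were below the background in the knockout and near it in wild type. Ndnf, a secreted neurotrophic and angiogenic factor, stood at 243, 215, 211 and 281 CPM in knockout hypoxia and 294, 270, 303 and 277 CPM in knockout room air, against 403, 381, 380 and 431 CPM in wild type hypoxia and 282, 289, 312 and 293 CPM in wild type room air. Wild type hypoxia samples of Ndnf thus lay above the 12 other samples. Ndnf fell by 0.27 ± 0.09 on the log2 scale in the knockout in hypoxia (edgeR, adjusted p = 0.04) and rose by 0.44 ± 0.09 in wild type (adjusted p = 0.0039), and these effects differed by -0.71 ± 0.12 (adjusted p = 0.012). The knockout fall of Ndnf was lost in 9 of 28 alternatives, and the difference between the effects was lost once the 4 samples rich in other organs' markers were left out (adjusted p = 0.149). Between genotypes in hypoxia Ndnf was lower in the knockout by a log2 difference of -0.75 ± 0.09 (adjusted p = 4.85e-05).

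Timp3, an inhibitor of metalloproteinases held in the matrix, stood at 1420, 1370, 1450 and 1440 CPM in knockout hypoxia, against 983, 1030, 1020 and 1190 CPM in knockout room air, and rose by 0.43 ± 0.09 on the log2 scale (edgeR, adjusted p = 0.0036). Vegfa, the endothelial growth factor that type I cells also make, stood at 645, 658, 634 and 637 CPM in wild type hypoxia, against 781, 764, 776 and 769 CPM in wild type room air, and fell by 0.26 ± 0.07 (edgeR, adjusted p = 0.0302). The Vegfa call was lost without any 1 wild type sample other than wild type room air 3, with adjusted p up to 0.122 over all alternatives. Between genotypes in hypoxia, 4 of the 24 genes were lower in the knockout and 1 was higher, where 12.1% of all genes were lower and 11% higher, so these counts were near the background. The lower ones were Ndnf, Gprc5a, an orphan receptor (-0.68 ± 0.14, adjusted p = 0.0035), Krt19, a keratin (-0.38 ± 0.09, adjusted p = 0.0069), and Col4a3, a basement membrane collagen chain (-0.27 ± 0.09, adjusted p = 0.0326). The higher one was Timp3 (0.33 ± 0.09, adjusted p = 0.0179). Without wild type hypoxia 2, 3 or 4 or knockout hypoxia 2 or 3 the Col4a3 call was lost, with adjusted p up to 0.119 over all alternatives, and the Timp3 call was lost without wild type hypoxia 1 or the 4 samples rich in other organs' markers, with adjusted p up to 0.064 over all alternatives. The Krt19 call was lost with those 4 samples left out (adjusted p = 0.053). In room air 0 of the 24 were called between genotypes, where 0.0761% of all genes were. Their log2 differences there ran from -0.53 to 0.53, with 17 negative and 7 positive. Gprc5a lay at 210 to 255 CPM in knockout room air and 303 to 374 CPM in wild type room air. These Gprc5a groups did not overlap, where 10.4% of all genes did not. The list's median log2 fold change ran from -0.15 to 0.03 over the 5 comparisons, as in the plot of the epithelial lists. The part of other lung cells in the levels of these 24 genes was not tested.

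**Figure D5:**
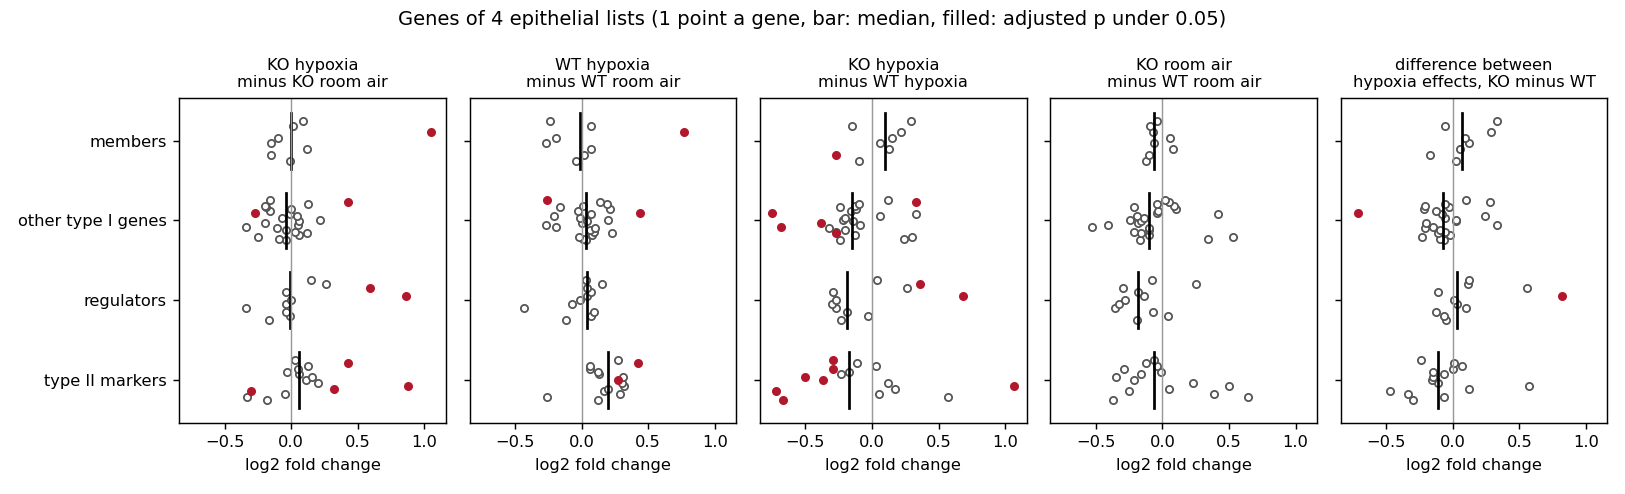
edgeR log2 fold changes of 4 gene lists in 5 comparisons (1 point a gene; bar: list median; filled: adjusted p under 0.05): the 8 alveolar type I genes, 24 further type I genes, 11 regulators and 15 type II markers. For knockout minus wild type in hypoxia the median is 0.1 for the 8 genes, -0.15 for the further type I genes, -0.19 for the regulators and -0.17 for the type II markers.

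Among 11 regulators of alveolar epithelium, which act in other lung cells too, 2 rose in the knockout in hypoxia and 0 were called in wild type in hypoxia, near the 17% and 4.98% of all genes called. Tead2, a DNA-binding partner of YAP and TAZ, stood at 28.7, 28, 25.1 and 27.5 CPM in knockout hypoxia and 13.6, 14.8, 16 and 16.1 CPM in knockout room air, against 14.3, 19.6, 17.2 and 16.9 CPM in wild type hypoxia and 14.1, 18, 16.6 and 17.8 CPM in wild type room air. Knockout hypoxia samples lay above all others. Tead2 rose by 0.86 ± 0.11 on the log2 scale in the knockout (edgeR, adjusted p = 2.21e-05), and the effects of hypoxia differed between genotypes by 0.82 ± 0.15 (adjusted p = 0.0168; up to 0.127 over the alternatives, with the call lost without knockout room air 1, wild type room air 4 or the 4 samples rich in other organs' markers). Tead4 rose by 0.59 ± 0.1 in the knockout (adjusted p = 0.000367). Wwtr1, which encodes TAZ, was higher in knockout than in wild type hypoxia by 0.36 ± 0.09 (adjusted p = 0.0108), a call lost for Wwtr1 once those 4 samples were left out (adjusted p = 0.0628).

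Of 15 type II markers, 3 rose and 1 fell in the knockout in hypoxia and 2 rose in wild type in hypoxia, where 17% of all genes were called in the knockout and 4.98% in wild type. Sftpd, surfactant protein D, stood at 1310, 1180, 1260 and 1490 CPM in knockout hypoxia, against 875, 966, 1000 and 1040 CPM in knockout room air, and rose by 0.43 ± 0.1 on the log2 scale (edgeR, adjusted p = 0.0065). It also rose in wild type (0.42 ± 0.1, adjusted p = 0.0189), and with library totals in place of TMM scaling the Sftpd calls were lost in both genotypes. The wild type call of Sftpd was lost as well without wild type hypoxia 2 or 3 or wild type room air 1 or 4, with adjusted p up to 0.127 over all alternatives. Between genotypes in hypoxia, 6 of the 15 were lower in the knockout and 1 was higher, where 23% of all genes were called. Etv5, a transcription factor of type II cells, was lower by a log2 difference of -0.72 ± 0.09 (edgeR, adjusted p = 8.45e-05) and Abca3, the lipid transporter of lamellar bodies, by -0.67 ± 0.13 (adjusted p = 0.0021). Il33, an alarmin of several lung cell types, was the higher one (1.07 ± 0.17, adjusted p = 0.000743). Type II markers summed to 25600 to 29700 CPM in knockout hypoxia and 24000 to 32500 CPM in wild type hypoxia.

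Of 12 genes of the transitional state between type II and type I cells, 1 rose and 2 fell in the knockout in hypoxia and 1 rose in wild type in hypoxia, beside the same 17% and 4.98% of all genes. Sfn, which encodes the 14-3-3 protein sigma, stood at 34.2, 23, 26.4 and 36.8 CPM in knockout hypoxia and 12.9, 15.1, 19.1 and 16 CPM in knockout room air, against 13.1, 14.5, 12.2 and 10.1 CPM in wild type hypoxia and 11.8, 14.7, 16 and 12 CPM in wild type room air. Knockout hypoxia lay above the other 3 groups. The effects of hypoxia on Sfn differed by 1.05 ± 0.23 (edgeR, adjusted p = 0.0422), a call lost in 17 of 27 alternatives, while its rise in the knockout (0.93 ± 0.16, adjusted p = 0.000396) kept its call in all 28. Cldn4, a tight junction claudin, fell by 1.48 ± 0.25 in the knockout in hypoxia (adjusted p = 0.000457), and differed by -0.12 ± 0.24 in wild type (adjusted p = 0.867). Its level was low, at a mean of 1.55 CPM in knockout hypoxia and 4.37 CPM in knockout room air. The gene that rose in wild type was Sprr1a, at a mean of 2.2 CPM in hypoxia and 0.434 CPM in room air. Sprr1a lost that call in 4 of 28 alternatives.

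Of 24 relatives and partners of the 8 genes, 2 rose and 6 fell in the knockout in hypoxia, and 2 rose and 3 fell in wild type in hypoxia, beside 17% and 4.98% of all genes called. Aqp1, the water channel of endothelium and red cells, stood at 1820, 1670, 1950 and 1810 CPM in knockout hypoxia, against 1080, 1280, 1040 and 1220 CPM in knockout room air, and rose by 0.65 ± 0.09 on the log2 scale (edgeR, adjusted p = 4.09e-05). Its rise in wild type was 0.31 ± 0.09 (adjusted p = 0.0446), and the wild type call of Aqp1 was lost in 17 of 28 alternatives, with adjusted p up to 0.298. Emp1, a relative of Emp2, rose by 0.6 ± 0.13 in the knockout (adjusted p = 0.0042) and by 0.52 ± 0.13 in wild type (adjusted p = 0.0274), and the wild type call of Emp1 was lost in 7 of 28 alternatives. Clic3, a relative of Clic5, fell by 0.34 ± 0.08 in the knockout (adjusted p = 0.0053, and 0.222 for Clic3 with the 4 samples rich in other organs' markers left out) and differed by -0.02 ± 0.08 in wild type (adjusted p = 0.931).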

How the data were processed

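Whole-lung RNA was sequenced in 20 libraries. Per the labels' protocols, ribosomal RNA was depleted and a directional kit was used. The submitters' processing notes name Trim Galore, TopHat2, HTSeq and the build mm10. The sources used here give no version, gene annotation or strand setting. The authors deposited raw counts per gene symbol, and 5 lines that name no gene were left out.

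Pairs of room air libraries lettered A and B under 1 number were summed, giving 16 samples. The chi-square of A against B per degree of freedom ran from 1.55 to 2.08, against 3.89 or more to any other number of the group. In R 4.3.3 with edgeR 4.0.16, filterByExpr (minimum count 10, minimum total 15) left 15766 genes. TMM scaling and a robust quasi-likelihood fit of all 4 groups gave two-sided tests with Benjamini-Hochberg adjustment over all genes, called at adjusted p under 0.05. SE is the standard error of the log2 fold change. Alternatives used limma 3.58.1 (voom), DESeq2 1.42.0, other scalings and fewer samples. Positions and exon lengths come from GENCODE vM21 on GRCm38. A and B are not explained by the labels.

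The 8 genes and all lists were chosen with earlier results of these data known. The text names the 8 genes, Arg2, up to 3 called genes of a list with the smallest p in a comparison, and the genes most alike in pattern. Igfbp6, Igfbp7, Col4a3 and some values of list genes in comparisons where they did not pass were added after their values were seen, as were the promoters and motifs. Hopx and Rtkn2 overlap antisense genes (Hopxos and Gm16212) that the count files do not list; without the strand setting, reads of both strands cannot be told apart. The tests were run on simulated data, where fewer of the genes changed by a known fold were recovered than the limit first set; the limit was then lowered, and the genes missed were not examined.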

Additional observations from a re-analysis of the deposited data

Results flagged for a closer look

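In 6 of the 80 groups of 4 samples examined, over 20 genes, 1 sample lay farther from the rest than Dixon's 95% limit of 0.829 allows, which chance gives in about 1 group in 20. These were Hopx at 757 CPM and Emp2 at 1320 CPM, both in knockout hypoxia 4, Pdpn at 136 CPM in knockout room air 2 and at 147 CPM in wild type room air 1, Igfbp2 in wild type room air 4 at 237 CPM, and Igfbp4 at 166 CPM in wild type room air 3.

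Among the 8 genes, none passed a test of the difference between the hypoxia effects in the genotypes. Of the other listed genes, Ndnf (-0.71 on the log2 scale, knockout minus wild type), Tead2 (0.82) and Sfn (1.05) did, with edgeR.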

How the results depend on the processing

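Under 28 alternatives, of which the removal of a GC trend and the joint exclusion of wild type hypoxia 4 and wild type room air 3 were chosen after seeing the data, 1112 values of the 8 genes were recomputed. Of these 1062 kept direction and side of the threshold, 2 lost the call, 17 gained one and 31 changed sign, all of the last between values that did not pass the test. The cause of the changes was not tested. Igfbp2 stayed called in hypoxia in all 28 in each genotype.

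For hypoxia in wild type, where 1 of the 8 genes was called, the count was 3 with library totals, and 2 with DESeq2, with limma voom, with the A libraries alone and without wild type hypoxia 4 and wild type room air 3; leaving out each sample in turn gave 1 to 2. For knockout against wild type in hypoxia, also 1, it was 2 with DESeq2, 0 with the GC trend removed, and 3 without wild type hypoxia 4 and wild type room air 3; leaving out each sample in turn gave 1 to 3, with 3 without wild type hypoxia 4 and 2 without wild type room air 1 or 3. The count stayed at 1, 0 and 0 in the other comparisons under all alternatives run. Over all genes, the calls ran from 1092 to 3424 for hypoxia in the knockout (2685 as reported), 400 to 1215 for hypoxia in wild type (785), 2093 to 4337 between genotypes in hypoxia (3633), 0 to 2524 between genotypes in room air (12) and 13 to 475 for the difference between the effects (79).

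With the replicate number as a block (replicate block), 2 genes were called for hypoxia in wild type, where Emp2 was added (adjusted p = 0.0257), and 2 for knockout against wild type in hypoxia, where Rtkn2 was added (adjusted p = 0.0304). Deviations of samples of the same number correlated over 0.1 in 12 of 24 pairs, with a median r of 0.102 and a range of -0.358 to 0.456. Pairs of different numbers were not set beside them, so these values do not show whether samples of the same number were paired.

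Signs changed as follows, in log2. For hypoxia in the knockout, Pdpn was -0.02 with upper quartile scaling, -0.05 with library totals, and -0.01 without the filter and with the compared groups alone; Ager was 0.06 and Hopx 0.03 with the 4 samples rich in other organs' markers left out, and Ager 0 with the A libraries alone. For hypoxia in wild type, Aqp5 was -0.06 and Clic5 -0.01 with library totals. Between genotypes with the GC trend removed, Ager was 0.03 in hypoxia, and Ager 0.02 and Igfbp2 0.05 in room air; Rtkn2 was 0.04 in room air without wild type hypoxia 4 and wild type room air 3. For the difference between the effects, Ager was -0.02 with upper quartile scaling, Pdpn 0.07 with the 4 samples rich in other organs' markers left out, and Clic5 -0.05 without wild type hypoxia 4 and wild type room air 3. 

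With each sample left out in turn, Ager ran from -0.05 to 0.01 and Pdpn from -0.05 to 0.03 for hypoxia in the knockout; Ager ran from -0.09 to 0.02 and Aqp5 from -0.02 to 0.05 for hypoxia in wild type; Rtkn2 ran from -0.13 to 0.02 and Igfbp2 from -0.14 to 0.02 between genotypes in room air; Ager ran from -0.03 to 0.08 and Clic5 from -0.04 to 0.1 for the difference between the effects.

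The limits are those of 4 samples a group of whole lung. Depth, from 9531270 to 63331530 counts, gave each of the 8 genes at least 1540 counts in every sample. Levels in whole lung are not levels per cell.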
